A study of Mus musculus with 8 samples.

Results

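Anti-Flag beads incubated with a lysate that holds no Flag-tagged eIF4A2 still recover RNA, and the libraries made from that RNA measure the background of the immunoprecipitation. The libraries described here are the RNA immunoprecipitates (RIP) of ESCs with the empty vector (EV) and their inputs, RIP EV replicates 1 and 2 against input EV replicates 1 and 2. They were taken by their group labels and are 4 of the 8 libraries of the series. Genes were compared when both EV inputs had a CPM of at least 1, that is reads of the gene over all gene reads of the library times 1000000, which 11342 of 52550 genes had. The RIP libraries played no part in that filter. At its edge, the 123 genes just inside had 1.10 CPM in their lower input and 89 of them had no read in either RIP EV library. The 106 genes just outside had 0.963 CPM, and 65 of them had no read in either.

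The study asked which RNAs associate with eIF4A2 in mouse ESCs by RIP and sequencing. Cells were *Eif4a2* KO ESCs in all 8 libraries, carrying the EV or re-expressing the tagged protein (Eif4a2flag), with 2 inputs and 2 RIPs of each. By the paper, the vector into which coding sequences were cloned for rescue carries a Flag sequence, and the EV control of its mass spectrometry is described as Flag alone. Whether the EV cells of these libraries made a free tag is not stated. The genotype of RIP Eif4a2flag replicate 2 is given as for the others, but its sample type field names Eif4a3, and it was kept in its group by title, genotype and column name. All were grown in ES-DMEM with 2i, that is 1.5 µM CHIR99021 and 0.5 µM PD0325901, with LIF at 10 ng/ml. Each RIP used 5 µg of the M2 antibody for 3 h at 4 °C with Magna-RIP reagents.

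By the paper's legend, the replicates of a re-expressed isoform were different clones, and it does not say whether the EV replicates were separate clones or cultures. The p-values below therefore measure only the spread between these libraries. The labels put all 8 libraries on 1 flow cell and lane. QuantSeq 3′ libraries give 1 tag near the 3′ end of a polyadenylated RNA, so counts were not divided by transcript length.

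eIF4A2 is a DEAD-box RNA helicase, a paralogue of the eIF4A1 subunit of the cap-binding complex eIF4F, and it also works with the CCR4-NOT complex in repression by microRNAs. RNA can be held on antibody-coated beads without the tagged protein through proteins that bind the matrix, through large complexes that sediment with the beads, or by contact of the RNA itself. An RIP from cells without the tagged protein is the usual control for such RNA.

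*Eif4a2* (ENSMUSG00000022884) had 53.8 and 94.2 CPM in the EV inputs and 56.7 and 126 CPM in the RIP EV libraries. It had 86.8 and 69.1 CPM in the Eif4a2flag inputs, so these tags did not separate KO cells with and without the re-expressed protein. Whether the tags lie before or after the edit is not known, and they check nothing about the KO. *Eif4a1*, the paralogue, had 287 and 340 CPM in the EV inputs and 214 and 341 CPM in RIP EV. The RIP EV libraries overlapped the inputs for both genes.

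The ESC label was checked against marker genes in the EV inputs. All 10 listed markers of ESCs were among the tested genes, and together they had 2655 and 2399 CPM in the inputs and 1470 and 2000 CPM in RIP EV. The most abundant was *Tfcp2l1*, with a mean of 585 CPM in the inputs. The 7 fibroblast markers together had 0.825 and 6.87 CPM in the inputs, with *Thy1* highest and 5 of them at 0. The 7 primitive endoderm markers had 0 and 0.936 CPM, and all 6 markers of 2-cell-like cells were at 0. The 6 trophectoderm markers had 10.5 and 38.1 CPM, with *Eomes* at a mean of 11.7 CPM and *Elf5* at 0. The 5 formative and primed markers had 170 and 119 CPM, with *Dnmt3b* at 122 CPM and *T* at 0. In such bulk libraries, fewer cells of a type and less RNA per cell cannot be told apart.

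The RIP EV libraries held 2044853 and 3345151 gene reads and the EV inputs 7269765 and 3204369. For each gene read, RIP EV replicate 1 held 2.30 reads outside annotated exons and replicate 2 held 0.996, against 0.320 and 0.585 in the inputs. The replicates of RIP EV were far less alike than those of any other group. Their biological coefficient of variation was 173%, against 30.4% for the EV inputs, 29.2% for the Eif4a2flag inputs and 23.5% for the Eif4a2flag RIPs.

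The first comparison asked which RNAs differed in level between RIP EV and input EV. With edgeR on the 4 libraries, 0 of 11342 genes (0%) were higher and 0 (0%) lower at a Benjamini-Hochberg adjusted p under 0.05, and the smallest adjusted p was 0.066. At an unadjusted p under 0.05, edgeR gave 460 genes higher (4.06%) and 3135 lower (27.6%). Other tools gave calls on the same counts. DESeq2 on the 4 libraries called 318 higher and 505 lower, and on all 8 libraries 1089 and 3773. On all 8 libraries edgeR called 497 and 3112, and limma voom with a quality weight per group 138 and 3020. The lists of DESeq2 on 4 libraries, DESeq2 on 8 and edgeR on 8 shared 300 genes higher and 502 lower. Leaving out 1 library moved the edgeR counts. They were 25 and 34 when input EV replicate 1 was left out and 19 and 22 for input EV replicate 2. With RIP EV replicate 1 left out they came to 1891 and 4934, and for RIP EV replicate 2 to 1796 and 7043, where a lone library is assumed to vary like the other group. With the replicate number as a block, edgeR on the same 4 libraries called 148 higher and 270 lower, and without a filter on low counts 2 and 1. Since no gene passed in the fit without that block, single genes are described by their levels in each library.

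By levels alone, 1583 genes (14.0%) had a higher CPM in each RIP EV library than in either input, and 5264 (46.4%) had a lower CPM in each. The other 4495 overlapped. The filter asked for a level in both inputs and none in RIP EV, so part of this lean to below may be set by it. Of the 5264 below, 2589 had 1 to 10 CPM in the lower input. The share below was 57.9% at that level, 33.9% at 10 to 30 CPM, 35.8% at 30 to 100 CPM, 47.2% at 100 to 300 CPM and 64.2% from 300 CPM. The shares above were 7.31%, 17.5%, 19.9%, 17.9% and 15.6%. How much the filter adds was not tested. The median log2 ratio of the mean RIP EV level over the mean input level was −0.70 over the 11342 genes, with genes without a read in both RIP EV libraries set at the 0.557 CPM that 3 counts over both libraries give. These counts depend on both RIP EV libraries. The count above was 3798 without RIP EV replicate 1. Leaving out RIP EV replicate 2 gave 2901 above and 7917 below, and moved the median to −1.25, where the limit from 3 counts is also higher. Without any other single library the median ran from −0.74 to −0.62. The shares of all genes, 14.0% and 46.4%, and the median of −0.70 are the values against which each class and list below is read.

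Many RNAs that were plain in the input had no read in the background. RIP EV replicate 1 lacked a read for 5174 tested genes (45.6%), replicate 2 for 2998 (26.4%), and both for 2359 (20.8%). The filter asked for reads in both EV inputs, so the comparison is with the Eif4a2flag libraries, which it did not use. Thinned to the depth of RIP EV replicate 1, the Eif4a2flag inputs would lack 166 and 119 of these genes by exact calculation, and the Eif4a2flag RIPs 234 and 299. At the depth of RIP EV replicate 2 the numbers would be 95.9 and 52.1 for the inputs and 169 and 228 for the RIPs. Among 6871 genes with at least 10 CPM in both inputs, 1819 had no read in RIP EV replicate 1, 565 in replicate 2 and 332 in both. Among 1619 genes with at least 100 CPM, the numbers were 41, 1 and 0. The reads have no molecular identifiers, so these numbers and the limits from 3 counts allow for counting error alone.

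The 2 RIP EV libraries resembled each other most for abundant RNAs. Of 4471 genes with 1 to 10 CPM in the lower input, 5.08% were within 2-fold between the RIP EV libraries, against 68.9% between the inputs, which set the groups, and 80.1% between the Eif4a2flag RIPs. The Eif4a2flag RIPs held 11206420 and 9976801 gene reads and so were deeper than RIP EV. Thinned to the depths of the RIP EV libraries, 72.2% of these genes would be expected within 2-fold between the Eif4a2flag RIPs and 67.1% between the Eif4a2flag inputs, where a gene lacking a read in any of the pair counts as outside. The RIP EV share was higher at higher input levels, at 16.9% (10 to 30 CPM, 2776 genes), 36.5% (30 to 100 CPM, 2476 genes), 56.5% (100 to 300 CPM, 1124 genes) and 77.8% (300 CPM and more, 495 genes). The log2 ratios of RIP EV replicate 1 over input EV replicate 1 and of replicate 2 over replicate 2 share no library. Across genes their Pearson's r was 0.146 in the lowest of these groups and 0.665 in the highest, where genes are not independent replicates. Medians of the ratio did not follow input level in 1 direction, at −1.79, −0.28, −0.33, −0.57 and −0.91 from the lowest group to the highest. Of the 495 most abundant genes, 77 were above both inputs and 318 below, and with 1 library left out from 88 to 111 were above.

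RNA classes differed in their share of gene reads. Shares of a class or list, here and below, sum all its genes, also those left out by the input filter. Counts above and below and medians use its tested genes alone, so the shares and the counts cover different sets of genes. Protein-coding genes took 85.3% and 92.0% of gene reads in the inputs and 78.5% and 85.6% in RIP EV, so the libraries overlapped. Of 10466 tested coding genes, 1514 were above both inputs and 4703 below, with a median log2 ratio of −0.62. The count above was 3610 without RIP EV replicate 1, and leaving out RIP EV replicate 2 gave 2750 above and 7219 below. Long intergenic RNAs (lincRNAs) without *Gm42418*, a locus that overlaps ribosomal RNA sequence, took 0.465% and 0.623% in the inputs and 1.47% in each RIP EV library. Antisense genes took 0.114% and 0.194% in the inputs and 0.930% and 0.356% in RIP EV. Genes classed as processed_transcript, some of them hosts of small nucleolar RNAs such as *Gas5*, took 0.405% and 0.597% in the inputs and 0.891% and 1.07% in RIP EV. In all 3 classes both RIP EV shares lay above both inputs.

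By gene, the medians of these classes lay below the −0.70 of all genes with all 4 libraries, but above the −1.25 of all genes without RIP EV replicate 2. The median lincRNA had a log2 ratio of −1.82, with 15 of 174 tested above both inputs, which is 8.62%, and 103 below. The median antisense gene stood at −1.81 (8 of 105 above, 67 below) and the median processed_transcript gene at −1.57 (15 of 71 above, which is 21.1%, and 40 below). These classes also start from low input levels, with medians of 5.69 CPM for lincRNAs and 4.98 CPM for antisense genes against 19.9 CPM for all genes. No read in either RIP EV library was found for 81 of the lincRNAs, 57 of the antisense genes and 25 of the processed_transcript genes. Such genes are set at the limit of 3 counts, so these medians are upper limits, and the median antisense gene had no read. The counts above were 44 lincRNAs, 21 antisense genes and 24 processed_transcript genes without RIP EV replicate 1. Leaving out RIP EV replicate 2 gave 33 lincRNAs above and 137 below, and 20 antisense genes above and 84 below. For processed_transcript genes it gave 19 above and 50 below. The median without RIP EV replicate 2 was −0.97 for lincRNAs, −0.93 for antisense genes and −1.04 for processed_transcript genes, where the limit of 3 counts is also higher in a single library. That limit bounds how low an unread gene with low input can be set, so these medians do not decide the direction against all genes. Of all 11342 genes, 2901 lay above and 7917 below without RIP EV replicate 2. The share below was larger than that of all genes for lincRNAs and antisense genes and near it for processed_transcript genes. With all 4 libraries, 59.2% of lincRNAs, 63.8% of antisense genes and 56.3% of processed_transcript genes lay below. Of the 4471 genes with 1 to 10 CPM in the lower input, 57.9% lay below and 7.31% above, with a median of −1.79. The 3 class shares below were closer to that 57.9% than to the 46.4% of all genes. These differences in share were not tested. The strand setting of the counting is not known, so reads given to antisense genes may come from the overlapping gene.

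Processed pseudogenes took 1.84% and 1.94% of gene reads in the inputs and 1.63% and 0.717% in RIP EV. Of 306 tested, 12 were above both inputs and 216 below, with a median of −1.99. The count above was 46 without RIP EV replicate 1. Without RIP EV replicate 2, 44 lay above and 254 below, against 2901 and 7917 of all 11342 genes. The share below was thus larger than that of all genes, a difference that was not tested. With all 4 libraries it was 70.6%, against 57.9% of the 4471 genes with 1 to 10 CPM in the lower input. The median was then −1.08, against −1.25 for all genes. Median input was 3.62 CPM for these pseudogenes and 19.9 CPM for all genes. The limit set for unread genes bounds how low a gene with low input can go, so these medians do not decide the direction. The most abundant of these pseudogenes were near copies of ribosomal protein genes, so their reads are uncertain. Small nucleolar and Cajal body RNAs took 0.0874% and 0.161% in the inputs and 0.150% and 0.123% in RIP EV, with 5 of 59 above and 34 below. Genes that the annotation classes as TEC, which await experimental evidence, took 0.0590% and 0.0930% in the inputs and 0.317% and 0.179% in RIP EV, with 5 of 77 above and 48 below. The counts above in these last classes were 16 and 20 without RIP EV replicate 1. Leaving out RIP EV replicate 2 gave 9 and 11, and 9 TEC genes lay above without input EV replicate 2.

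The 1 tested gene of the rRNA class, *CT010467.1* (ENSMUSG00000106106, chr17:39846353-39848827, minus strand), had 170 and 46.5 CPM in the inputs and 13420 and 3295 CPM in RIP EV. It was the third most abundant gene in RIP EV, and both RIP EV libraries lay above both inputs by a 77.1-fold difference of the means. As a log2 ratio this was 6.27, and with 1 library left out it ran from 4.93 (RIP EV replicate 1) to 7.49 (input EV replicate 1). *Gm42418*, annotated over the same stretch, had 104900 and 18333 CPM in the inputs and 136204 and 93553 CPM in RIP EV. For *Gm42418* the RIP EV libraries overlapped input EV replicate 1. The pair lie on opposite strands and the strand setting is not known, so reads from the far more abundant *Gm42418* cannot be told apart from those of *CT010467.1*, and its fold is uncertain. The 4 tested loci listed as rRNA-derived counted 0 above and 2 below, with 1 above without input EV replicate 1 or without RIP EV replicate 2. They were *Gm42418*, *Gm26917* and the 2 mitochondrial rRNAs, which are counted again below. *Gm26917*, annotated next to this stretch, had 285 and 727 CPM in the inputs and 200 and 119 CPM in RIP EV, below both inputs.

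Mitochondrially encoded mRNAs made up 0.892% and 2.06% of gene reads in the inputs and 0.615% and 0.486% in RIP EV. In the Eif4a2flag RIPs they made up 0.00558% and 0.0108%. *mt-Cytb* (ENSMUSG00000064370), a subunit of complex III, had 2490 and 5141 CPM in the inputs and 576 and 562 CPM in RIP EV, 6.71-fold lower by the means. *mt-Nd4*, a subunit of complex I, had 3517 and 9718 CPM in the inputs and 1281 and 1158 CPM in RIP EV. Of the 7 tested mRNAs, 4 lay below both inputs and 1 above, with a median of −1.19. Without input EV replicate 2 the count above was 2, and without RIP EV replicate 1 it was 2 as well. The lowest median with 1 library left out was −1.65 (RIP EV replicate 2) and the highest −0.64 (input EV replicate 2).

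The gene above both inputs was *mt-Nd6* (ENSMUSG00000064368, chrM:13552-14070), the mRNA read from the opposite mitochondrial strand. It had 98.5 and 136 CPM in the inputs and 2823 and 611 CPM in RIP EV. Reads from RNA of the other strand cannot be told apart from it, since the strand setting is not known. The mitochondrial rRNAs took 0.217% and 0.369% in the inputs and 0.213% and 0.130% in RIP EV, and the 4 tested mitochondrial tRNAs had no read in either RIP EV library.

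Noncoding RNAs of the imprinted Dlk1-Dio3 region on chromosome 12 were the list with the highest median among long RNAs. They took 0.0877% and 0.122% of gene reads in the inputs and 0.557% and 0.735% in RIP EV. *Meg3* (ENSMUSG00000021268, chr12:109541001-109571726), a nuclear lincRNA of the maternal allele, had 781 and 1082 CPM in the inputs and 5128 and 6929 CPM in RIP EV. *Mirg* (ENSMUSG00000097391), a host of microRNAs in the same region, had 46.5 and 54.9 CPM in the inputs and 313 and 291 CPM in RIP EV. *Rian*, which hosts small nucleolar RNAs there, had 41.3 and 68.3 CPM in the inputs and 130 and 44.2 CPM in RIP EV, and so overlapped. Of 5 tested, 2 lay above and 0 below, with a median of 2.51. Without input EV replicate 2 the count above was 3, without RIP EV replicate 1 it was 4, and without RIP EV replicate 2 it was 3 with 2 below. The median was 1.25 without RIP EV replicate 2 and from 1.98 to 2.84 without any other library.

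Among 14 tested RNAs listed as nuclear-retained, 6 lay above both inputs and 4 below, with a median of 1.23. *Meg3* and *Mirg* are also in this list and among those above, so it is not separate from the Dlk1-Dio3 list. *Gm26917*, already described among the rRNA-derived loci, is in this list too and is among those below. *Malat1*, an RNA of nuclear speckles, had 533 and 440 CPM in the inputs and 1097 and 1408 CPM in RIP EV. *Neat1*, the scaffold of paraspeckles, had 77.4 and 66.5 CPM in the inputs and 0 and 33.5 CPM in RIP EV, below both inputs. *Xist* had 0 reads in the EV libraries. Without any 1 library the list counted from 6 to 8 above and from 4 to 6 below.

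Of 17 noncoding hosts of small nucleolar RNAs, 10 lay above both inputs and 4 below. Their median was 0.89, and their counts without each library ran from 10 to 12 above and from 4 to 5 below. *Gas5* had 482 and 712 CPM in the inputs and 1481 and 3345 CPM in RIP EV, and *Snhg5* had 183 and 301 CPM in the inputs and 900 and 784 CPM in RIP EV. *Snhg9* went the other way, with 152 and 536 CPM in the inputs and 40.1 and 113 CPM in RIP EV. Spliced *Gas5* is known as a target of nonsense-mediated decay. The 17 hosts took 0.298% and 0.481% of gene reads in the inputs and 0.635% and 0.928% in RIP EV.

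Coding genes that host small nucleolar RNAs included the mRNA with the largest fold above its inputs among those with at least 100 CPM in both inputs. *Taf1d* (ENSMUSG00000031939, chr9:15306214-15316991), which encodes a subunit of the RNA polymerase I factor SL1, had 354 and 492 CPM in the inputs and 4528 and 5893 CPM in RIP EV. Both RIP EV libraries lay far above both inputs, at 12.3-fold by the means and a fitted log2 difference of 3.59 ± 0.33 (SE, n = 2 libraries per group; edgeR, adjusted p = 0.066). *Nop56* (ENSMUSG00000027405), a core protein of box C/D small nucleolar particles, had 289 and 204 CPM in the inputs and 1317 and 3310 CPM in RIP EV. Coding hosts with at least 100 CPM in both inputs had a median of −0.17 over 65 genes, against −0.66 over the other 1515 coding genes at that level. Without *Taf1d* and *Nop56* the host median was −0.18 over 63 genes. By replicate number, the medians were −0.50 for hosts and −0.77 for the others in replicate 1, and 0.004 and −0.60 in replicate 2. With RIP EV replicate 2 left out they were −0.61 and −0.88, and with RIP EV replicate 1 left out 0.06 and −0.57. The host list was read from the annotation after the values of *Taf1d* and *Nop56* were seen.

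Several other abundant RNAs lay above both inputs. *Nucks1* (ENSMUSG00000026434), a nuclear DNA-binding protein, had 1068 and 1188 CPM in the inputs and 5277 and 5715 CPM in RIP EV, a fitted log2 difference of 2.24 ± 0.25 (SE; edgeR, adjusted p = 0.066). *Eif5b* (ENSMUSG00000026083), the GTPase of ribosomal subunit joining, had 591 and 209 CPM in the inputs and 3196 and 2320 CPM in RIP EV. *Rbm25* (ENSMUSG00000010608), a splicing factor, had 667 and 344 CPM in the inputs and 3157 and 2405 CPM in RIP EV. Each of these RNAs was more than 4-fold above its inputs by the means. *Upf3b*, of the exon junction complex and nonsense-mediated decay, had 182 and 117 CPM in the inputs and 693 and 921 CPM in RIP EV. *Ddx21*, a nucleolar helicase, had 699 and 300 CPM in the inputs and 2522 and 2413 CPM in RIP EV, and *Snrnp48*, of the minor spliceosome, had 212 and 231 CPM in the inputs and 1112 and 1464 CPM in RIP EV. Genes named in this and the next paragraphs beyond the fixed rule were chosen after their values were seen.

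**Figure D1:**
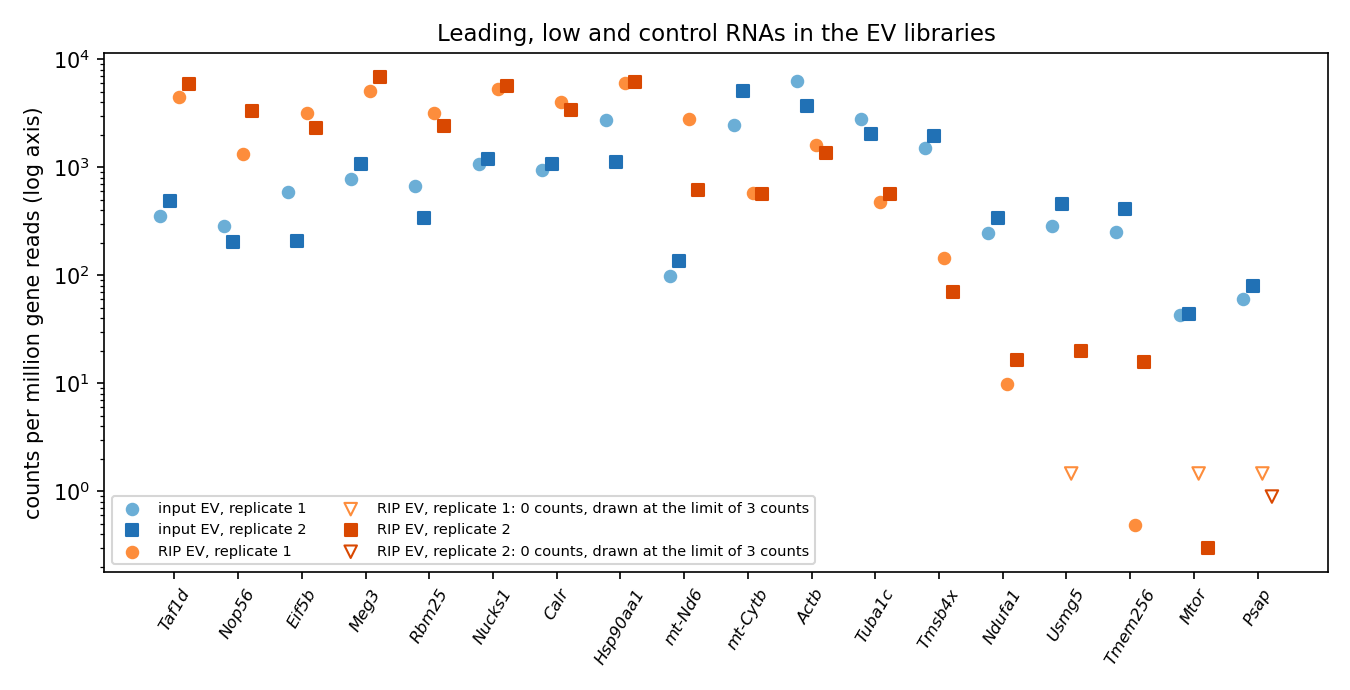
Level of 18 RNAs in each of the 4 EV libraries, inputs in blue and RIP EV in orange, in CPM on a log axis, with open triangles for libraries without a read, drawn at the level of 3 counts. *Taf1d*, *Meg3* and *Nucks1* lie above both inputs in both RIP EV libraries, and *Actb*, *Tmsb4x* and *Ndufa1* lie below both.

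RNA-binding protein mRNAs as a list were mixed. Of 29 tested, 11 lay above both inputs and 10 below, with a median of 0.22. The median was −0.17 without RIP EV replicate 1, −0.03 without input EV replicate 2, 0.02 without RIP EV replicate 2 and 0.30 without input EV replicate 1, so its sign is open. *Srsf11* had 601 and 607 CPM in the inputs and 1124 and 1978 CPM in RIP EV, and *Npm1*, of the nucleolus, had 917 and 1032 CPM in the inputs and 1603 and 1397 CPM in RIP EV. The 25 giant mRNAs, a list of very long coding RNAs, counted 8 above and 6 below with a median of 0.12. They counted 12 above and 11 below without RIP EV replicate 1, and 13 above and 10 below without RIP EV replicate 2. The median was −0.07 with RIP EV replicate 1 left out and 0.29 with input EV replicate 1 left out.

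Replication-dependent histone mRNAs end in a stem-loop and mostly lack a poly(A) tail, and only 28 of 67 reached the input filter. They took 0.0216% and 0.0319% of gene reads in the inputs and 0.1095% and 0.126% in RIP EV. Of the 28, 10 lay above both inputs and 9 below, with a median of 1.35. *Hist1h1e*, a linker histone, had 22.6 and 10.6 CPM in the inputs and 330 and 222 CPM in RIP EV. *Hist1h2bk* had 1.38 and 9.05 CPM in the inputs and 131 and 71.4 CPM in RIP EV, and *Hist1h3d* had 49.7 and 90.5 CPM in the inputs and 156 and 117 CPM in RIP EV. The count above was 16 without RIP EV replicate 1, and the count below was 16 without RIP EV replicate 2, where the median fell to −0.25. Without any other library it ran from 1.14 to 1.95.

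Chaperone mRNAs differed by family member. *Hsp90ab1*, the second most abundant gene in RIP EV and in the inputs, had 14952 and 9707 CPM in the inputs and 26262 and 22048 CPM in RIP EV. *Hsp90aa1*, its inducible paralogue, had 2741 and 1134 CPM in the inputs and 6017 and 6182 CPM in RIP EV. Most other cytosolic chaperones lay below, so that 3 of 18 counted above and 10 below with a median of −0.67. The count above was 7 without RIP EV replicate 1, and the median was −0.45 there and −0.98 without RIP EV replicate 2. *Calr* (ENSMUSG00000003814), a lectin chaperone of the endoplasmic reticulum, had 939 and 1085 CPM in the inputs and 4024 and 3373 CPM in RIP EV. *Canx*, its membrane-bound relative, had 454 and 747 CPM in the inputs and 2271 and 1597 CPM in RIP EV. The 21 endoplasmic reticulum chaperones counted 7 above and 7 below with a median of −0.32, and without RIP EV replicate 2 they counted 9 and 11. Their median turned to 0.02 with RIP EV replicate 1 left out, and it was −0.12 without input EV replicate 2.

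Nuclear-encoded subunits of the respiratory chain were the list with the largest share below the inputs. They took 2.22% and 2.43% of gene reads in the inputs and 0.739% and 1.01% in RIP EV. Of 79 tested, 63 lay below both inputs and 2 above, with a median of −1.87. Without single libraries the counts below ran from 64 to 70. The counts above were 4 without input EV replicate 2, 8 without RIP EV replicate 1 and 5 without RIP EV replicate 2.

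*Ndufa1* (ENSMUSG00000016427, chrX:37187588-37191163), a small accessory subunit of complex I, had 246 and 342 CPM in the inputs and 9.78 and 16.4 CPM in RIP EV. It was 22.4-fold lower by the means. *Ndufb6*, another accessory subunit of complex I, had 131 and 153 CPM in the inputs and 7.34 and 7.17 CPM in RIP EV. *Atp5e*, of the ATP synthase stalk, had 297 and 286 CPM in the inputs and 7.82 and 36.8 CPM in RIP EV. Not all subunits were so low. *Cox6c* had 1443 and 1481 CPM in the inputs and 156 and 643 CPM in RIP EV, and *Uqcrh* had 903 and 881 CPM in the inputs and 1056 and 553 CPM in RIP EV, where the groups overlapped.

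Cytoskeleton mRNAs took 1.52% and 1.13% of gene reads in the inputs and 0.416% and 0.380% in RIP EV. Of 21 tested, 14 lay below both inputs and 1 above, with a median of −1.76. *Actb* (ENSMUSG00000029580), cytoplasmic actin, had 6312 and 3713 CPM in the inputs and 1599 and 1359 CPM in RIP EV, a fitted log2 difference of −1.82 ± 0.39 (SE; edgeR, adjusted p = 0.066). *Tuba1c*, an alpha-tubulin, had 2791 and 2050 CPM in the inputs and 483 and 573 CPM in RIP EV. *Tmsb4x* (ENSMUSG00000049775), which binds actin monomers, had 1528 and 1972 CPM in the inputs and 144 and 70.3 CPM in RIP EV, 16.3-fold lower by the means. The count above was 2 without input EV replicate 1, and 3 without either RIP EV library.

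Some RNAs that were plain in the inputs had few reads or none in RIP EV. *Usmg5*, a small subunit of the ATP synthase, had 285 and 457 CPM in the inputs and 0 and 20.03 CPM in RIP EV. *Tmem256* had 250 and 408 CPM in the inputs and 0.489 and 15.8 CPM in RIP EV, and *Rpl35a* had 176 and 487 CPM in the inputs and 1.47 and 9.27 CPM in RIP EV. All 3 lay below both inputs in each RIP EV library. *Psap*, a lysosomal precursor protein, had 61.1 and 80.2 CPM in the inputs and no read in either RIP EV library, which makes it at least 127-fold lower. *Sec61g*, of the translocon, had 48.4 and 143 CPM in the inputs and no read, at least 172-fold lower. The uncharacterized *A330084C13Rik* had 70.8 and 149 CPM and no read, at least 197-fold lower. *Tmem126a*, *Sertad3*, *Smco4* and *Tmem101* had no read in RIP EV either and were at least 152-fold, 120-fold, 118-fold and 99.6-fold lower. Limits of this kind, here and below, use the 0.557 CPM of 3 counts over both RIP EV libraries. That level is 1.47 CPM for RIP EV replicate 1 alone, so the limits would be lower without replicate 2. They also use the mean input, so those of *Sec61g* and *A330084C13Rik* would be lower without input EV replicate 2.

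**Figure D2:**
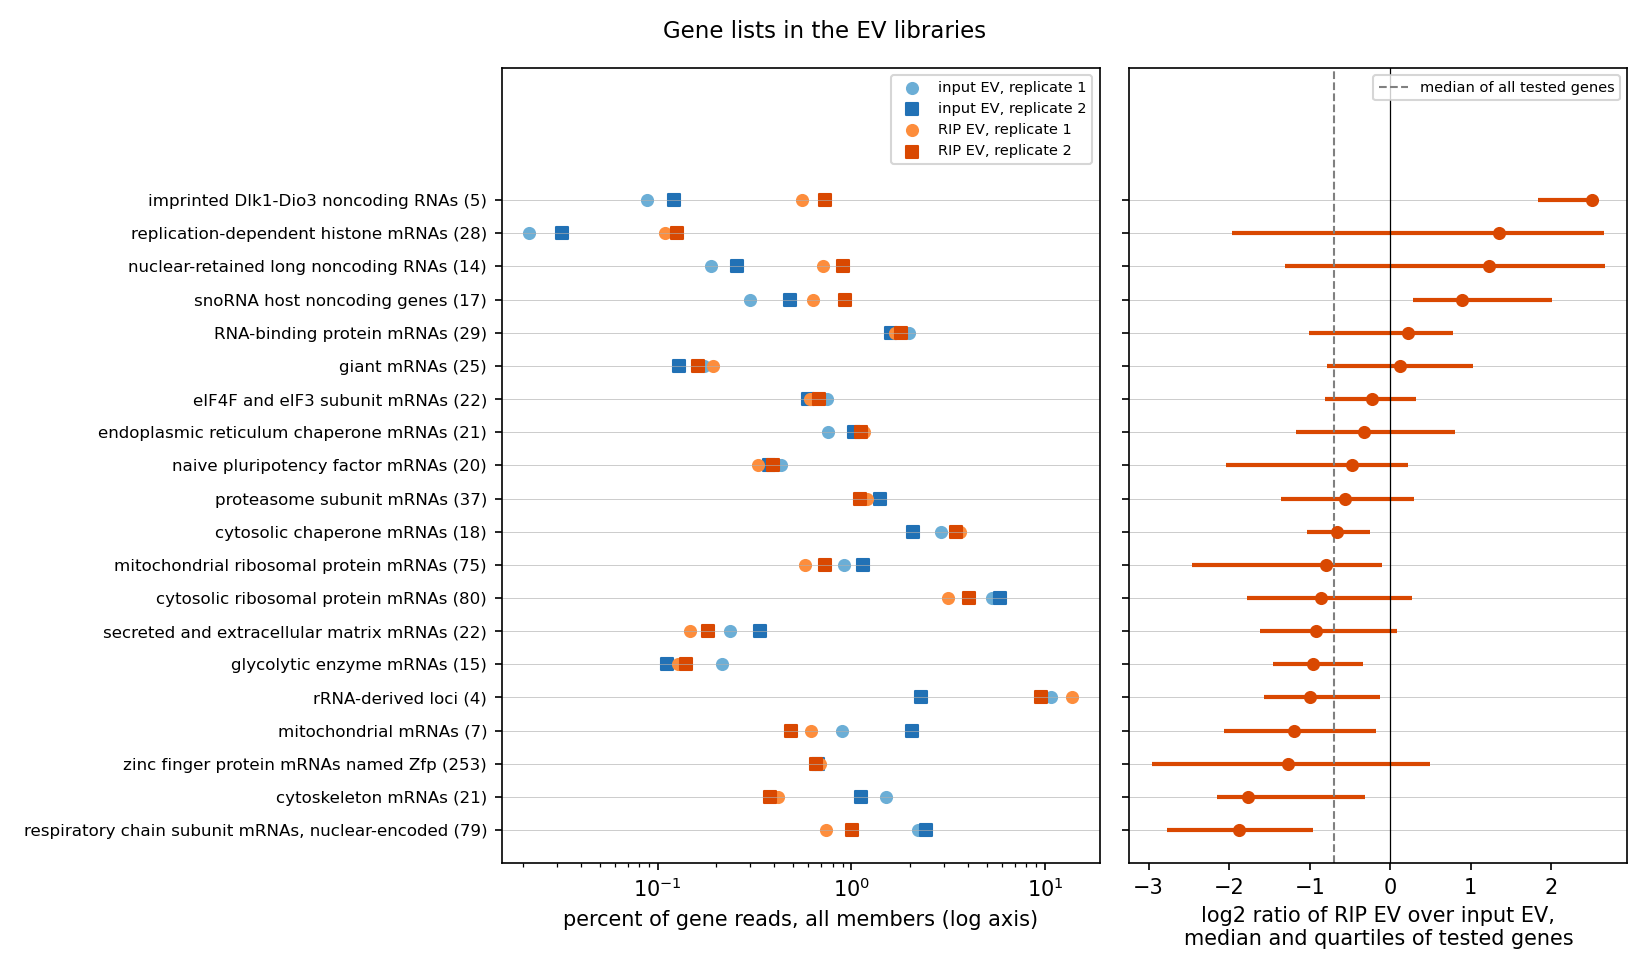
Share of gene reads of each list in each EV library, over all its members, on a log axis. Beside it is the median with quartiles of the log2 ratio of RIP EV over input EV for its tested genes. The median of all genes is dashed. Dlk1-Dio3 noncoding RNAs have a median of 2.51 (1.25 without RIP EV replicate 2) and nuclear-encoded respiratory chain subunits a median of −1.87.

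Ribosomal protein, enzyme, secreted and zinc finger lists had medians from −0.80 to −1.27 with all 4 libraries. The 80 tested cytosolic ribosomal protein mRNAs counted 10 above and 40 below with a median of −0.86, though 23 lay above without RIP EV replicate 1, 17 above without RIP EV replicate 2, and pseudogenes make their reads uncertain. Mitochondrial ribosomal proteins counted 9 above and 40 below of 75, with a median of −0.80, and 19 above without RIP EV replicate 1 and 15 without RIP EV replicate 2. Glycolytic enzymes counted 2 above and 8 below of 15 (−0.96), and secreted and matrix proteins 1 above and 12 below of 22 (−0.92), with 4 above without either RIP EV library. Zinc finger mRNAs named Zfp counted 26 above and 138 below of 253 (−1.27), with 75 above without RIP EV replicate 1 and 57 above without RIP EV replicate 2. With 1 library left out, the medians ran from −1.27 to −0.53 for cytosolic ribosomal proteins, −1.78 to −0.68 for mitochondrial ribosomal proteins, −1.34 to −0.32 for glycolytic enzymes, −1.50 to −0.60 for secreted proteins and −1.56 to −1.14 for zinc finger mRNAs. The lowest of these came without RIP EV replicate 2, where all genes stood at −1.25, except for glycolytic enzymes, where it came without input EV replicate 2.

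Proteasome subunits counted 7 above and 18 below of 37, with a median of −0.56, and 14 above without RIP EV replicate 1. The median was −0.88 without RIP EV replicate 2. *Psma7* lay above, with 540 and 563 CPM in the inputs and 1231 and 1255 CPM in RIP EV, and *Psmd7* had 848 and 783 CPM in the inputs and 2065 and 1729 CPM in RIP EV. *Psmd4* lay below, with 1164.5 and 1312.6 CPM in the inputs and 929 and 754 CPM in RIP EV. *Psmc5* overlapped, with 1172 and 1463 CPM in the inputs and 1325 and 679 CPM in RIP EV. Subunits of eIF4F and eIF3, partners of eIF4A in initiation, counted 5 above and 5 below of 22 (−0.22), with 12 above without RIP EV replicate 1 and 13 below without RIP EV replicate 2. The count below was 8 without input EV replicate 2. The median was 0.12 without RIP EV replicate 1 and −0.91 without RIP EV replicate 2. *Eif3a*, the largest eIF3 subunit, had 534 and 442 CPM in the inputs and 1918 and 1391 CPM in RIP EV.

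Naive pluripotency factors counted 6 above and 10 below of 20, with a median of −0.48, which was −0.32 without RIP EV replicate 1 and −0.74 without RIP EV replicate 2. *Esrrb* had 483 and 368 CPM in the inputs and 79.2 and 146 CPM in RIP EV. *Pou5f1* had 19.7 and 9.05 CPM in the inputs and no read in RIP EV, at least 25.8-fold lower, but near-identical copies make its counts uncertain. Structured small RNAs counted 1 above and 4 below of 7 (−1.86, and −0.83 without RIP EV replicate 2), and olfactory and vomeronasal receptor genes 0 above and 3 below of 4, with 1 above without RIP EV replicate 2.

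The RIP EV ratio of abundant coding RNAs was compared with runs of purines in their coding sequence. A window of 40 bases was moved along the coding sequence of 1 transcript per gene, and the largest number of purines (A or G) was taken. This feature was chosen after the values of *Taf1d* and others were seen. Across 1580 coding genes with at least 100 CPM in both inputs, its Spearman correlation with the log2 ratio of RIP EV over input EV was 0.474. It was 0.392 for RIP EV replicate 1 over input EV replicate 1 and 0.468 for replicate 2 over replicate 2. For the Eif4a2flag libraries the same correlation was 0.161. At 10 CPM and more (6674 genes) it was 0.306 in EV and 0.218 in Eif4a2flag, and over all 10463 coding genes, zeros included, 0.237 and 0.197. The differences between these correlations were not tested. Genes are not independent replicates, so these values describe the genes.

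By bins of that count, the median log2 ratio was −1.33 for 221 genes with 22 to 28 purines, −0.92 for 607 with 29 to 31, −0.45 for 458 with 32 to 34, 0.24 for 201 with 35 to 37, and 0.82 for 93 with 38 to 40. In the lowest bin 10 genes lay above both inputs and 169 below, and in the highest 56 lay above and 8 below. With 1 library left out, the lowest bin had 20 above without input EV replicate 2, 19 without RIP EV replicate 1 and 18 without RIP EV replicate 2. The highest bin then had from 60 to 66 above, and 15 below without input EV replicate 1, 14 without RIP EV replicate 1 and 18 without RIP EV replicate 2. The medians for the Eif4a2flag libraries ran from −0.18 to 0.28 over the same bins. Among coding genes with 10 to 100 CPM, the medians ran from −0.90 in 698 genes to 1.08 in 170 genes in EV, and from 0.15 to 0.81 in Eif4a2flag. The feature did not mark all RNAs above the inputs. Of 270 coding genes above both inputs at 100 CPM and more, 125 had at most 34 purines, and of 827 below both inputs, 63 had at least 35.

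**Figure D3:**
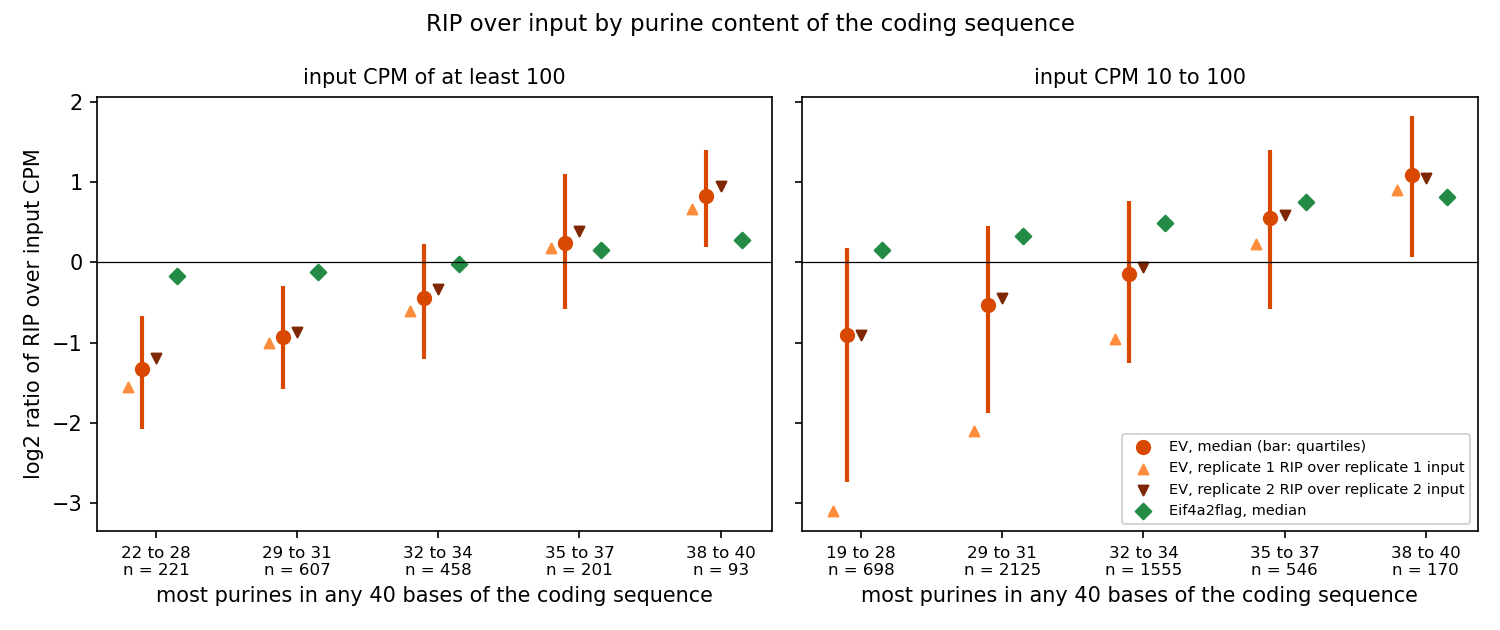
Median log2 ratio of RIP over input against the largest number of purines in 40 bases of coding sequence, with quartiles for EV, for genes with at least 100 CPM and with 10 to 100 CPM in both EV inputs. At 100 CPM and more, the EV medians go from −1.33 to 0.82 and the Eif4a2flag medians from −0.18 to 0.28.

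Within 5 groups of coding sequence length, the correlations at 100 CPM and more were 0.31, 0.39, 0.41, 0.44 and 0.61 from the shortest to the longest, and from −0.20 to 0.20 in Eif4a2flag. At 10 to 100 CPM they were weaker, at 0.09, 0.18, 0.17, 0.30 and 0.29. Coding sequence length itself correlated at 0.332 with the EV ratio and at 0.374 with the Eif4a2flag ratio. The same window in 3′ untranslated regions gave 0.077 over 1552 genes, and the largest number of pyrimidines in the coding sequence gave 0.123. The most A in 20 bases of coding sequence gave 0.421, and the most A or C in 40 bases 0.312. The largest number of codons for Asp, Glu, Lys or Arg in 15 codons, which are mostly purines, gave 0.490. Codons for Lys and Arg alone gave 0.418 and for Asp and Glu alone 0.398. These single correlations do not separate runs of purines, A-rich stretches and charged codons. Whether any of them holds within levels of another was not tested. Hydrophobic codons gave −0.020.

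The windows of 6 abundant RNAs above the inputs are shown so that the runs can be read, with purines in capitals. They were picked after their values were seen, and other abundant RNAs above the inputs have fewer purines, such as *Snrnp48* with 34 and *Nucks1* with 32. They come from the GRCm38 (mm10) genome with GENCODE exons, 5′ to 3′ along the mRNA. *Rbm25* and *Upf3b* have 39 purines of 40, *Canx* 38, *Calr* and *Taf1d* 37, and *Nop56* 35. The positions are chr12:83668467-83668506 on the plus strand in exon 12 for *Rbm25* and chrX:37099592-37099631 on the minus strand in exon 7 for *Upf3b*. They are chr11:50297302-50297341 on the minus strand in exon 13 for *Canx*, chr8:84842757-84842796 on the minus strand in exon 9 for *Calr*, chr9:15308703-15308742 on the plus strand in exon 3 for *Taf1d*, and chr2:130278191-130278230 on the plus strand in exon 11 for *Nop56*.
Rbm25: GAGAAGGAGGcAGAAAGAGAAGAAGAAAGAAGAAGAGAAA
Upf3b: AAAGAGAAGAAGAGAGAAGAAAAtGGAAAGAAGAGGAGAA
Canx: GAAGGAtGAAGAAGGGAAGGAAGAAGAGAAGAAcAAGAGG
Calr: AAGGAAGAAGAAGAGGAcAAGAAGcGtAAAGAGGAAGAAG
Taf1d: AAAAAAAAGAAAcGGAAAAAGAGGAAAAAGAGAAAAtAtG
Nop56: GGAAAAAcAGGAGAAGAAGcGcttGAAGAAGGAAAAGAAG

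The windows with the most purines in coding sequences of RNAs below the inputs are shown for comparison, also with purines in capitals. *Tmem256*, *Usmg5* and *Tmem101* reach 25 of 40, *Tmem126a* 26 and *Actb* 28. These too were picked after their values were seen, and other RNAs below both inputs reach more, such as *Tmsb4x* with 32, *Usp42* with 34 and *Ubr4* with 39. The positions are chr11:69839432-69839471 on the plus strand in exon 4 for *Tmem256*, chr19:47085961-47086000 on the minus strand in exon 3 for *Usmg5*, and chr11:102154620-102154659 on the minus strand in exon 3 for *Tmem101*. They are chr7:90455473-90455512 on the minus strand in exon 2 for *Tmem126a* and chr5:142904501-142904540 on the minus strand in exon 4 for *Actb*.
Tmem256: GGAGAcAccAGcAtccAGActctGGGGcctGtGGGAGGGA
Usmg5: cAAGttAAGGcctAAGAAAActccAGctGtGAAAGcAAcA
Tmem101: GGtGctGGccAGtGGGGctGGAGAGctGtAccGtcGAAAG
Tmem126a: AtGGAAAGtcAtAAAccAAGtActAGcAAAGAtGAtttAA
Actb: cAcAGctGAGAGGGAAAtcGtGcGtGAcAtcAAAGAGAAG

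The features planned for all tested genes were correlated with the EV ratio as well. Over 11332 genes, Spearman's rho was 0.205 for the number of exons, 0.141 for transcript length, 0.114 for genomic span, 0.095 for the longest run of A in the transcript, 0.093 for that in the gene body, and −0.059 for GC content. The same correlations for Eif4a2flag were 0.392 for exons, 0.350 for transcript length, 0.291 for span, 0.063 and 0.180 for the runs of A, and 0.176 for GC content. On the 1580 coding genes used for purines, rho was 0.303 for exons, 0.273 for transcript length and 0.238 for span in EV and 0.303, 0.239 and 0.191 in Eif4a2flag, and over all 10463 coding genes 0.196 for exons in EV and 0.333 in Eif4a2flag. Without RIP EV replicate 2, rho was 0.107 for exons, 0.074 for transcript length, 0.044 for span and 0.036 for the run of A in the gene body. In 5 groups of genes by transcript length, median ratios went from −1.40 in the shortest to −0.27 in the longest. The shortest group had 191 genes above and 1354 below, and the longest 416 above and 897 below. The counts above were 521 and 915 without RIP EV replicate 1. Leaving out RIP EV replicate 2 gave 387 and 696 above, and 1468 of the longest below.

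The EV background was then set against RIP over input in Eif4a2flag cells, to ask where the background and the RIP with tagged protein differed. An edgeR interaction on all 8 libraries called 220 genes (1.94%) with a higher change in EV and 2160 (19.0%) with a lower change in EV, at a Benjamini-Hochberg adjusted p under 0.05. Scaling moved the median difference of all genes from −0.72 with TMM factors to −0.99 with library size alone, and single genes are to be read against that shift. DESeq2 on 8 libraries called 612 and 2803, which held 220 and 2125 of the same genes, and limma voom with a quality weight per group called 4 and 0. The counts fell to 0 and 0 without input EV replicate 1, without input EV replicate 2, without input Eif4a2flag replicate 1, without input Eif4a2flag replicate 2, without RIP Eif4a2flag replicate 1 or without RIP Eif4a2flag replicate 2. With RIP EV replicate 1 left out they were 1268 and 4005, and for RIP EV replicate 2 they were 1350 and 5926. Every named call of this comparison rests on each of the inputs and of the Eif4a2flag RIP libraries.

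*Taf1d* had 320 and 364 CPM in the Eif4a2flag inputs and 65.7 and 114 CPM in the Eif4a2flag RIPs, the opposite direction to EV, and its difference of log2 changes was 5.83 ± 0.50 (SE; edgeR, adjusted p = 0.0202). *mt-Cytb* had 1580 and 2471 CPM in the Eif4a2flag inputs and 11.3 and 13.8 CPM in the RIPs, so it was far lower there than in the EV background. Its difference was 4.88 ± 0.55 (SE; edgeR, adjusted p = 0.0202). All 7 tested mitochondrial mRNAs were called with a higher change in EV, as were 8 of 17 noncoding hosts of small nucleolar RNAs (47.1%, against 1.94% of all genes). In the other direction, *Ndufa1* had 174 and 183 CPM in the Eif4a2flag inputs and 338 and 221 CPM in the RIPs, and its difference was −4.83 ± 0.54 (SE; edgeR, adjusted p = 0.0202). Of the respiratory chain list, 18 of 79 (22.8%) were called with a lower change in EV, and of the giant mRNAs 6 of 25 (24%), both near the 19.0% of all genes. None of these calls was made without any single input or Eif4a2flag RIP library, or with the replicate number as a block, where the smallest adjusted p of edgeR was 0.052 and 0 genes were called. Unadjusted, edgeR with that block gave 435 and 2854 genes under 0.05. The differences of the 3 named genes stayed about as large where their calls were lost. Without single input or Eif4a2flag RIP libraries they ran from 5.38 to 6.20 for *Taf1d*, 4.50 to 5.40 for *mt-Cytb* and −5.21 to −4.62 for *Ndufa1*. With the block they were 5.88, 4.93 and −4.85.

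Some RNAs with little input were abundant in the background. *Ulk4* (ENSMUSG00000040936, chr9:120955351-121277197), a pseudokinase, had 13.3 and 9.99 CPM in the inputs and 1000 and 353 CPM in RIP EV. *Gm9828*, a lincRNA, had 2.34 and 1.87 CPM in the inputs and 302 and 108 CPM in RIP EV, and *Gm10203* had 1.65 and 1.56 CPM in the inputs and 49.9 and 52.9 CPM in RIP EV. *Gm10203* had no read in either Eif4a2flag RIP. Tags from priming inside introns or on genomic A-runs were not looked for, since the values used here are counts per gene.

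Genes below the input filter added to this group. The 41208 genes left out took 0.339% and 0.517% of gene reads in the inputs and 3.54% and 1.30% in RIP EV. They were left out for a low level in an EV input, so the low share of the EV inputs is set by the filter. In the Eif4a2flag libraries, which the filter did not use, they took 0.542% and 0.472% in the inputs and 0.731% and 0.638% in the RIPs. Of these, 107 had at least 1 CPM in both RIP EV libraries, and 15 of the 107 also had it in both Eif4a2flag RIPs and 23 in both Eif4a2flag inputs. The 107 were picked for their level in RIP EV, so their rise over the inputs follows from the choice and these counts only describe which genes were picked. They were 43 coding genes, 14 antisense genes, 13 lincRNAs, 11 processed pseudogenes, 10 TEC genes and 7 of the class processed_transcript, with the rest in smaller classes. *Cerkl* had 29 and 3 counts in the inputs and 535 and 515 in RIP EV, *Gm31600* had 1 and 3 counts in the inputs and 479 and 855 in RIP EV, and *Gm48681* had 4 and 14 counts in the inputs and 241 and 507 in RIP EV. These genes had at most 9 counts in either Eif4a2flag RIP, and they were chosen after their values were seen.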

How the data were processed

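The deposited values are raw counts per gene, 1 column per library, which the authors made with HTSeq-count (version 0.11.2) after STAR (version 2.5.3a) on mm10. The 5 summary rows of the deposited table were dropped and held between 31.8% and 80.1% of its reads. Names and classes came from GENCODE on GRCm38, matched for 52403 of 52550 identifiers. The strand setting and annotation release are not given, so antisense genes and near-identical copies are uncertain. CPM uses the total of gene reads. edgeR (version 4.0.16, R version 4.3.3) fitted quasi-likelihood tests with TMM factors, on 4 libraries for RIP EV against input EV and on 8 for the interaction, with Benjamini-Hochberg adjustment over 11342 genes. DESeq2 (version 1.42.0), limma (version 3.58.1), other scalings and filters, a block for the replicate number, and each library left out were alternatives. Coding sequence features were added after seeing the data.

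Members, lists and tests were chosen with earlier results of these data known. Genes were named by a rule. Fixed genes were *Eif4a2*, *Eif4a1*, *Meg3*, *Rian*, *Malat1*, *Neat1*, *Xist*, *Spen*, *Mtor*, *Actb*, *Gapdh*, *Eef1a1*, *Pou5f1*, *Nanog*, *Esrrb* and *Gm42418*. Added were the 10 most abundant in RIP EV and the 10 largest differences in each direction with non-overlapping libraries. These differences needed at least 50 counts in each RIP EV library for rises and 200 in each input for falls. The rule also took up to 4 genes per list or class. Last came the 5 largest interaction differences in each direction with at least 10 counts in each RIP EV library.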

Additional observations from a re-analysis of the deposited data

Results flagged for a closer look

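Reads outside annotated exons, which no comparison used, made up 45.8% of the table in RIP EV replicate 1 and 29.7% in RIP EV replicate 2, above the 13.1% and 17.6% of the EV inputs. Where in the genome they lie cannot be read from counts per gene. Also outside the comparison were 17 genes with no read in either EV input and at least 10 counts in each RIP EV library. They were picked by these counts, so their rise over the inputs follows from the choice.

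The change from input to RIP differed between EV and Eif4a2flag cells by the edgeR interaction on 8 libraries, with 220 genes higher in EV and 2160 lower (adjusted p under 0.05), and 0 and 0 without any single input or Eif4a2flag RIP library. Called genes with at least 10 counts in each RIP EV library were ranked by the difference of log2 changes, EV minus Eif4a2flag. The 5 largest on the higher side were *Gm10203* (10.74), *Gm17300* (9.35), *Snord35a* (8.96), *Gm42783* (8.67) and *Gm47284* (8.29). The 5 largest on the lower side were *Ndufa1* (−4.83), *Ddt* (−3.95), *Ndufb6* (−3.91), *Atp5e* (−3.84) and *Arvcf* (−3.67). By choice and not by rank, *mt-Nd6* (6.15), *Taf1d* (5.83), *mt-Cytb* (4.88) and *Meg3* (4.18), also called, were added. Called genes with larger differences than these added genes included *Gm9828* (7.68) and *CT010467.1* (7.22). Some called genes with fewer counts there had lower fitted differences, which are no bounds. Among them were *Psap* (−11.56), without a read in RIP EV, and *Mtor* (−8.96), with 0 and 1 counts. *Gm10203* had no read in either Eif4a2flag RIP, so its fitted difference depends on the prior count and is no bound. The 4 other genes above 8 have input levels under 11 CPM in both EV inputs and at most 6 counts in either Eif4a2flag RIP. Their fitted differences are uncertain and are no bounds either.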

How the results depend on the processing

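For RIP EV against input EV, edgeR called 0 genes higher and 0 lower also with library size alone, DESeq2 size factors, filterByExpr, at least 10 CPM, and without *Gm42418* and mitochondrial reads. Counts higher and lower were 318 and 505 with DESeq2 on 4 libraries, 1089 and 3773 with DESeq2 on 8, 497 and 3112 with edgeR on 8, 138 and 3020 with limma voom, 2 and 1 without a filter, and 148 and 270 with the replicate block, though same-numbered EV libraries did not pair (r = 0.022). Leaving out 1 library gave 19 to 1891 higher and 22 to 7043 lower. For the interaction (220 and 2160), the counts were 612 higher with DESeq2, 4 and 0 with limma voom, 0 and 0 with the replicate block, and 0 to 1350 and 0 to 5926 with 1 library left out. Non-overlapping genes numbered 2675 below at 10 CPM, and from 1819 to 3798 above and 5608 to 7917 below with a library left out. Genes without a read at 10 CPM numbered 1819, 565 and 332. With 1 library left out, class medians ran from −1.28 to −0.54 for coding genes, −1.75 to −0.97 for lincRNAs, −1.75 to −0.93 for antisense genes, −1.44 to −1.04 for processed_transcript, −1.97 to −1.08 for processed pseudogenes, −1.61 to −1.11 for snoRNAs and scaRNAs and −1.75 to −0.96 for TEC. Correlations with the EV ratio ran from 0.044 to 0.124 for span, 0.074 to 0.153 for transcript length, 0.107 to 0.216 for exons, 0.072 to 0.104 for the run of A in the transcript, 0.036 to 0.099 for that in the gene body, 0.416 to 0.485 for purines and 0.434 to 0.501 for charged codons. The last 2, added after seeing the data, were 0.306 and 0.303 at 10 CPM and 0.237 and 0.232 at 1 CPM. The cause of these differences was not tested, except that fewer genes or libraries were used, and the floor of a single RIP EV library is higher. Among 42 genes named for RIP EV against input EV, none of which passed the main fit, 618 alternative values split into 397 with the same direction and still not called, 212 called in the same direction and 9 reversed. Among 14 genes named for the interaction, all called in the main fit, 72 of 181 alternative values stayed called, 109 kept their direction but were not called, and 0 reversed. These 9 fall in 7 genes, whose log2 fold changes without single libraries ran as follows. *Eif4a1* ran from −0.60 to 0.0836, its value when RIP EV replicate 1 was left out. *Eif4a2* ran from −0.41 for RIP EV replicate 2 to 0.75, with −0.07 for input EV replicate 1, and *Gm42418* from −0.0296 for input EV replicate 2 to 2.64. *Nanog* ran from −1.68 to 0.0418, *Rian* from 1.22 down to −0.33 and *Spen* from −9.40 to 0.55, each reversed for RIP EV replicate 1. *Rps24* ran from −0.26 for input EV replicate 1 to 0.50, with −0.15 for RIP EV replicate 2.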
